A study of Mus musculus with 2 samples.

Results

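Islet stromal cells were taken from droplet single-cell RNA sequencing of mouse pancreatic islets, as the barcodes that carried several genes of fibroblasts and pericytes and almost no islet hormone. Of 9423 barcodes kept, 140 met this rule, 38 of 4961 in the control library and 102 of 4462 in the TBL/RβKO library. Members were chosen by their UMIs (unique molecular identifiers, tags that mark single captured transcripts): at least 3 of the 7 genes Col1a1, Col1a2, Col3a1, Dcn, Pdgfrb, Pdgfra and Rgs5 with 2 UMIs or more, and fewer than 500 UMIs of the 5 hormone genes Ins1, Ins2, Gcg, Sst and Ppy per 10000. Kept barcodes had more than 1000 detected genes and less than 10% mitochondrial UMIs. Levels of the 7 rule genes, and of every gene set against the other barcodes, therefore describe how the cells were selected and carry no test.

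The control library, labelled wildtype, came from mice without Cre on the C57BL/6N background. The TBL/RβKO library came from littermates with floxed Tbl1x and Tbl1xr1 and Cre placed in the Ins1 gene, which is active in β-cells. Whether the control mice carried the floxed alleles too is not stated. Each library pooled 150 islets of 4 mice aged 5 weeks, before hyperglycaemia. The islets spent a night in medium with 10% serum at 37 °C and were dissociated for 20 min. There was 1 library per group, so a difference between the libraries has no replicate check, intervals cover counting error only, and genotype cannot be told apart from pool, islet isolation or dissociation.

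Stromal cells of the pancreas make and remodel the extracellular matrix. Fibroblasts lay down collagen fibres, with Pdgfra and Dcn among their usual markers. Pericytes wrap capillaries, share a basement membrane with the endothelium and carry Rgs5, and pancreatic stellate cells store retinoids and become contractile when activated.

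Median depth was 34228 UMIs for control members and 37945 for TBL/RβKO members, and the 14 barcode sequences that occurred in both libraries included 0 members. All 6 stromal markers were present in both libraries. Col1a1 (chromosome 11, 94827050 to 94843868 on the plus strand, GRCm39) and Col1a2 (chromosome 6, 4504814 to 4541555, plus strand) encode the chains of type I collagen. Col3a1 (chromosome 1, 45350698 to 45395840, plus strand) encodes type III collagen, Dcn (chromosome 10, 97315275 to 97358155, plus strand) the collagen-binding proteoglycan decorin, and Mgp (chromosome 6, 136849433 to 136852821, minus strand) matrix Gla protein, an inhibitor of calcification. At the edge of the rule, 18 control and 8 TBL/RβKO members had exactly 3 of the 7 genes, while 17 and 13 barcodes outside had exactly 2. The hormone limit set aside 2 control and 19 TBL/RβKO barcodes. The highest hormone level inside was 199.5 per 10000 in the control and 360 in the TBL/RβKO library, against lowest levels outside of 998 and 662.

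The stromal label held for only some of the control members. Of the 38, 17 had all 8 endothelial markers (Pecam1, Cdh5, Plvap, Flt1, Kdr, Emcn, Esam and Egfl7) at 2 UMIs or more, as did 5 of the 102 in the TBL/RβKO library, and the remaining members had 3 or fewer. In the 17 control barcodes Col1a1 was at 0 UMIs in 16 and Dcn at 0 in all 17, while Pdgfrb ranged from 4 to 30 UMIs with a median of 10 and Rgs5 from 3 to 115 with a median of 11. They met the rule through pericyte genes and low collagen counts. The 5 TBL/RβKO barcodes were alike, with Dcn at 0 in all 5, Rgs5 at 6 to 22 UMIs and Pdgfrb at 9 to 18. Of channel genes listed for pericytes, Kcnj8 stood at 104 CPM (counts per 1e+06 UMIs) in the 17 control barcodes and 179 CPM in the 5. Abcc9 stood at 121 and 115 CPM. By themselves they do not show pericyte RNA here, since endothelial barcodes that were no members carried them too. In those, Kcnj8 was at 82.1 CPM in the control and 210 CPM in the TBL/RβKO library, and Abcc9 at 66.5 and 124 CPM. A doublet caller, Scrublet, marked 1 of these 17 barcodes and 0 of the 5, and 1 of 38 and 3 of 102 members in all. Whether such barcodes hold 2 cells, a capillary fragment or free RNA was not tested.

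**Figure D1:**
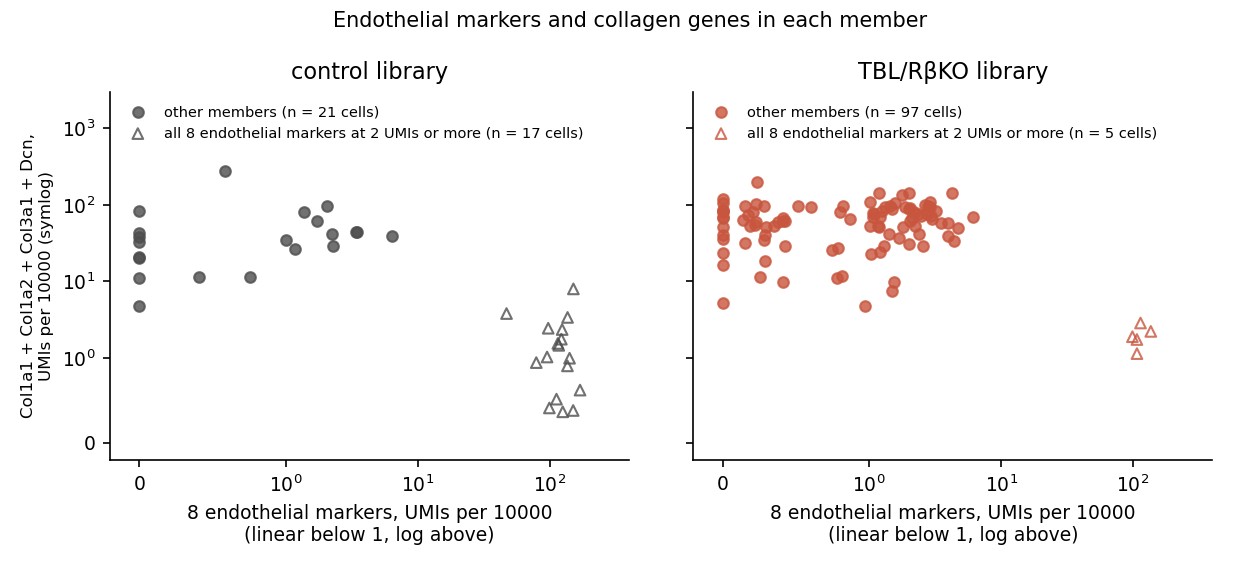
Each point is 1 member, with its summed endothelial markers on the x axis and its summed Col1a1, Col1a2, Col3a1 and Dcn on the y axis, both in UMIs per 10000 on axes that are linear below 1 and logarithmic above. The 17 control and 5 TBL/RβKO barcodes with all 8 markers (triangles) lie at 47.0 to 169 endothelial UMIs per 10000, and every other member (circles) at 6.42 or less.

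Values are therefore given for all 140 members and, as a choice made after seeing the data, for the 118 without all 8 endothelial markers, which were 21 control and 97 TBL/RβKO cells. In the 118, Kdr and Emcn were at 0 UMIs in both libraries and Pecam1 and Cdh5 at 0 in the control. Of the 8 markers, 2 reached a mean of 20 CPM, Plvap with 80.8 CPM in the control and 67.5 CPM in the TBL/RβKO library and Flt1 with 24.2 and 35.3 CPM. Macrophage markers were close to absent, with C1qc and Adgre1 at 0 in both libraries, and the B-cell, T-cell, acinar, mesothelial and adipocyte lists had no cell with 2 markers. At least 2 macrophage or Schwann cell markers were each found in 1 TBL/RβKO cell. At least 2 ductal markers were found in 0 of 21 control and 7 of 97 TBL/RβKO cells, the summed ductal list ran from 0 to 4.43 and from 0 to 99.9 UMIs per 10000, and 1 cell held 89% of the Krt18 UMIs of the TBL/RβKO library. Islet hormone UMIs went both ways. Insulin UMIs were fewer in the TBL/RβKO cells, with Ins1 at 1644 CPM and Ins2 at 4576 CPM in the control against 131 and 1003 CPM. Summed UMIs of the other hormone genes were more, with Gcg at 535 and 1012 CPM, Sst at 55.0 and 329 CPM, Ppy at 272 and 777 CPM and Pyy at 103 and 1513 CPM. Cell medians lay closer together, while single TBL/RβKO cells stood far above them. Gcg had medians of 5.04 and 4.48 UMIs per 10000 and maxima of 11.5 and 313. Ppy and Pyy together had medians of 3.95 and 4.58 and maxima of 7.65 and 483. The δ-cell list with Sst had medians of 0.584 and 0.778 and maxima of 2.58 and 269. The 5 hormone genes of the rule together had medians of 77.1 and 17.4 UMIs per 10000. Free hormone RNA in the droplets and low expression cannot be told apart there. Col1a1 gave 0 UMIs in 67 macrophage barcodes of the control and 2 in 60 of the TBL/RβKO library, and Mgp 3.57 and 9.22 CPM, against 2151 and 2166 CPM of Col1a1 and 9372 and 9820 CPM of Mgp in the stromal cells.

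Leading genes of the 118 cells against all other kept barcodes describe what the rule selected. By the lower of the ratios in the 2 libraries these were Ccdc80, Mfap5, Col3a1, Srpx2, Col6a2, Vtn, Col6a1, Cilp, Col5a3, Acta2, Fbn1, Dpt, Col1a1, Col5a1 and Bgn. Mfap5, which encodes a microfibril protein, had 908 CPM in control members and 931 CPM in TBL/RβKO members against 0.0867 and 1.75 CPM in the other barcodes. Dpt, encoding dermatopontin, had 137 and 151 CPM against 0.00867 and 0.456 CPM.

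Stromal cells took a larger share of the TBL/RβKO library. They were 0.766% of kept control barcodes (exact 95% binomial interval 0.543 to 1.05%) and 2.29% of kept TBL/RβKO barcodes (1.87 to 2.77%), a difference of 1.52 percentage points (Newcombe interval 1.03 to 2.04). For the 118 the shares were 0.423% (0.262 to 0.646%) and 2.17% (1.77 to 2.65%), and the difference 1.75 points (1.30 to 2.24). The denominator mattered. Among barcodes under the same hormone limit, 328 in the control and 850 in the TBL/RβKO library, all members made up 11.6% and 12%, which differed by 0.41 points (−3.99 to 4.25), while the 118 made up 6.40% and 11.4%, a difference of 5.01 points (1.27 to 8.19). With 1 pool of islets per group, more stromal cells per islet, fewer other cells and more carried-over tissue cannot be told apart. Macrophage and endothelial barcodes had overlapping intervals over kept barcodes, at 1.39% and 1.34% for barcodes with 3 or more macrophage markers and 0.907% and 0.896% for endothelial barcodes that were no members. Under the hormone limit both were lower in the TBL/RβKO library, macrophages at 21% and 7.06% (a difference of −14.0 points, −19.0 to −9.48) and endothelial barcodes at 13.7% and 4.71% (−9.01 points, −13.3 to −5.32). Their counts were close, 69 and 60 macrophage and 45 and 40 endothelial barcodes. The lower shares thus follow the rise of the denominator from 328 to 850, which takes in any barcode of low hormone level. What the further barcodes were was not tested. Low-hormone barcodes with 3 or more ductal markers were 11 (0.222% of those kept) in the control and 136 (3.05%) in the TBL/RβKO library. At 2 or more markers and any hormone level this list does not single out duct cells. So many were found in 4263 of 4923 control and 3436 of 4360 TBL/RβKO barcodes outside the members. These counts do not show how specific 3 or more markers are under the hormone limit. Whether the barcodes with 3 or more were duct cells, and whether carried-over tissue added to the stromal share, was not tested.

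**Figure D2:**
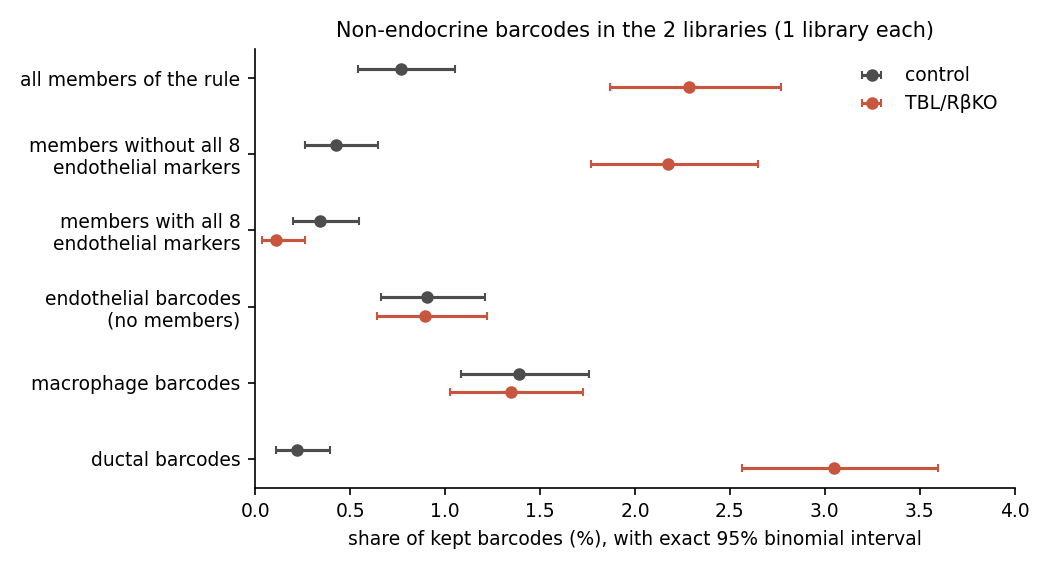
The x axis gives the share of kept barcodes in percent for each class, with points for the control (grey) and TBL/RβKO (red) library and bars for exact 95% binomial intervals. Stromal members and low-hormone barcodes with 3 or more ductal markers (ductal barcodes) stood higher in the TBL/RβKO library. The intervals of endothelial and macrophage barcodes overlapped.

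Cre transcripts were not detected in stromal cells of either library. Cre UMIs were 0 in all 102 TBL/RβKO members, which allows a share of cells with a UMI of up to 2.94%, and 0 in the 38 control members. In the other kept barcodes of the TBL/RβKO library 3182 Cre UMIs lay in 313 of 4360 barcodes (7.18%), at a median depth of 25094 UMIs against 37945 in members. In the 118, Tbl1x, one of the targeted genes, had 58.2 CPM in the control and 84.2 CPM in the TBL/RβKO library, a log2 ratio of TBL/RβKO over control of 0.53 (95% interval 0.03 to 1.07). Tbl1xr1 had 29.1 and 33.2 CPM and a log2 ratio of 0.19 (−0.53 to 0.99). Of the 6 genes listed for the NCoR co-repressor complex, in which both proteins act, 0 differed by 2-fold, and log2 ratios were 0.46 for Ncor1, −0.22 for Hdac3 and −0.15 for Gps2.

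The cells were next divided by the fibroblast gene Pdgfra (chromosome 5, 75311994 to 75358876, plus strand) and the pericyte gene Rgs5 (chromosome 1, 169483036 to 169524887, plus strand), each counted from 2 UMIs. No member had both. Of the 97 TBL/RβKO cells, 38 were positive for Pdgfra, 12 for Rgs5 and 47 for neither. Of the 21 control cells, 4 were positive for Pdgfra, 1 for Rgs5 and 16 for neither. The Pdgfra share was 19.0% in the control and 39.2% in the TBL/RβKO library, a difference of 20.1 points with an interval that includes 0 (−2.73 to 35.2). The neither share was 76.2% and 48.5%, a difference of −27.7 points (−44.1 to −4.30). Median UMIs were 24896 in the control cells with neither gene and 35141 in those of the TBL/RβKO library, so that detection from 2 UMIs had less depth in the control. With every cell thinned to 5000 UMIs the difference in Pdgfra share was 3.13 points, and 1 TBL/RβKO cell of 4502 UMIs was left out as shallower. At 55.0 and 54.4 CPM, Pdgfra seldom reaches 2 UMIs at that depth. The thinned difference would shrink whatever its source and does not show how much depth contributed. Over all 140 members the Rgs5 share was 47.4% in the control and 16.7% in the TBL/RβKO library, and of the 18 control barcodes concerned 17 carried all 8 endothelial markers. Without those barcodes the Rgs5 shares were 4.76% and 12.4%, so the direction of that difference rests on them.

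Since the control had 1 cell with Rgs5, the subsets were compared within the 97 TBL/RβKO cells. Of 6203 genes with a mean of 20 CPM or more over the pair of subsets, 459 (7.4%) were higher by 2-fold in the Pdgfra subset and 285 (4.59%) in the Rgs5 subset. Of 61 genes tested in the 6 matrix lists, 8 were higher in the Pdgfra and 3 in the Rgs5 subset. Pdgfrb, the PDGF receptor of pericytes and fibroblasts, had 282 CPM in the Pdgfra subset and 298 CPM in the Rgs5 subset. Col6a2, a chain of type VI collagen, had 388 and 389 CPM, and Serpinh1, the collagen chaperone HSP47, had 1218 and 1181 CPM. Col1a1 and Dcn leaned to the Pdgfra subset, at 2376 against 1684 CPM and 1234 against 715 CPM.

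In the mural list 5 of 7 genes tested were higher in the Rgs5 subset, and Abcc9 was higher in the Pdgfra subset. Rgs5 is 1 of the 5 by the way the subsets were split and carries no information there. In the contractile list 3 of 7 were higher in the Rgs5 subset and 0 in the Pdgfra subset. Tagln, which encodes the actin-binding protein transgelin, had 1218 CPM there against 358 CPM in the Pdgfra subset, a log2 ratio of Pdgfra over Rgs5 subset of −1.77 (−1.94 to −1.60). The intermediate filament gene Des had 261 against 108 CPM, the pericyte marker Ndufa4l2 217 against 38.3 CPM, and Notch3, the Notch receptor of mural cells, 65.2 against 30.9 CPM. Igfbp5, which encodes an IGF-binding protein, had 1069 against 29.8 CPM. Acta2, smooth-muscle actin, differed less, at 934 and 727 CPM. The chloride channel gene Ano1 had 123 against 5.15 CPM and Vtn, encoding vitronectin, 314 against 50.9 CPM. Of 15 immediate early genes, which cells induce within minutes of a stimulus, 8 were higher in the Rgs5 subset and 0 in the Pdgfra subset, with Fos at 1544 against 564 CPM and Jun at 883 against 310 CPM. Among the 10 highest ratios for the Rgs5 subset were also Gm13889, Cystm1, Plpp2, Map1b, Creb5, Gucy1a1 and Anxa3.

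Of 12 cytokine genes 5 were higher in the Pdgfra subset and 1 in the Rgs5 subset, and of 12 proteases and inhibitors 4 and 2. The chemokine gene Cxcl14 had 395 CPM there and 2.33 CPM in the Rgs5 subset, with UMIs in 26 of 38 and 1 of 12 cells. The chemokine gene Ccl2 had 179 and 9.31 CPM. Complement C3 had 169.9 CPM in the Pdgfra subset and 0 UMIs in the 12 Rgs5 cells. The gelatinase Mmp2 had 113 and 11.6 CPM, the proteoglycan versican (Vcan) 164 and 30.3 CPM, and Timp1, an inhibitor of metalloproteinases, 2615 and 938 CPM. The growth factor genes Igf1 (75.5 and 14.0 CPM) and Ptn (119.6 and 6.99 CPM) and the IGF-binding protein gene Igfbp4 (290 and 58.2 CPM) followed the same order. Il11, a cytokine of the IL-6 family, had 1960 and 587 CPM. The 10 highest ratios for the Pdgfra subset further held the histone genes H2ac24 and H1f5, Enpp2, Grem1, Top2a, Pclaf and Mmd. Cells with neither gene lay near the Pdgfra subset for Mmp2, Vcan, Ptn, Cxcl14 and Timp1, at 83.2, 160.4, 136, 303 and 3424 CPM, and between the subsets for Tagln and Ndufa4l2, at 533 and 79.6 CPM.

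**Figure D3:**
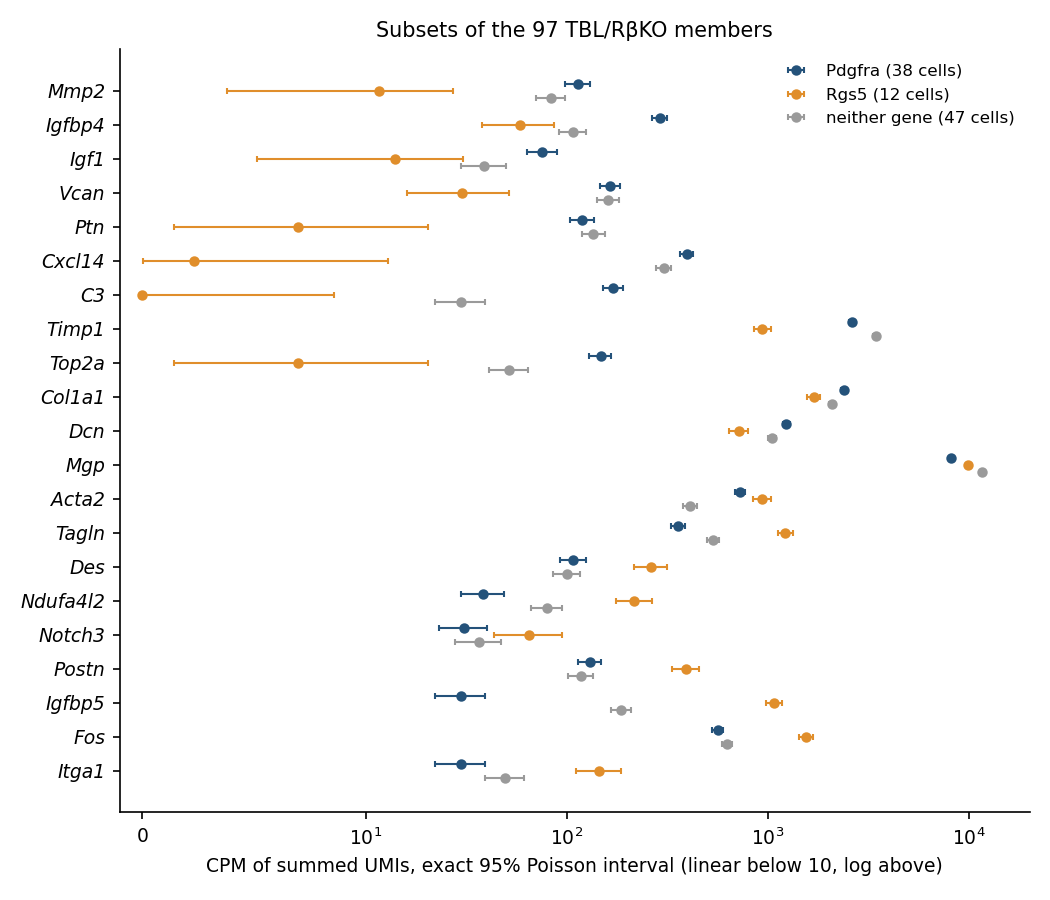
The x axis gives summed CPM (linear below 10, logarithmic above) with exact 95% Poisson intervals in the Pdgfra (blue, 38 cells), Rgs5 (orange, 12 cells) and neither (grey, 47 cells) subsets of the TBL/RβKO library. Genes from Mmp2 to Timp1 lay higher in the Pdgfra subset, and Tagln, Des, Ndufa4l2, Igfbp5 and Fos higher in the Rgs5 subset.

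Transcripts of dividing cells were seen in a minority. Of 12 cell cycle genes tested 11 were higher in the Pdgfra subset and 0 in the Rgs5 subset. Both Mki67 and Top2a, which mark proliferation, had 2 UMIs or more in 7 of 38 Pdgfra cells, 0 of 12 Rgs5 cells and 2 of 47 cells with neither gene. The intervals of the Pdgfra and Rgs5 shares overlap (7.74 to 34.3% and 0 to 26.5%). The 9 cells together were 9.28% of the TBL/RβKO cells, and 1 of 21 control cells (4.76%) met the same definition. Cells with both markers were deeper, with a median of 65063 UMIs against 35804.5 in the other TBL/RβKO cells. That depth was not equalised here.

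Gene levels were then compared between the libraries on UMIs summed over cells, among genes with a mean of 20 CPM or more, and a gene was called when it differed by 2-fold. Over all 140 members, 283 of 6772 genes (4.18%) were higher and 717 (10.6%) lower in the TBL/RβKO library. After the endothelial-marked barcodes were left out, 236 of 6153 genes (3.84%) were higher and 83 (1.35%) lower, and the median log2 ratio of all genes was 0.00. Of these called genes, 109 of the 236 higher and 35 of the 83 lower were also called over all members. The 12 lowest genes over all members included Esm1, a marker of endothelial tip cells, at 1734 CPM in the control and 87.2 CPM in the TBL/RβKO library, the lymphatic and angiogenic receptor gene Flt4 at 106 and 5.72 CPM, the Notch ligand gene Dll1 at 58.0 and 1.99 CPM and the atypical chemokine receptor gene Ackr3 at 65.3 and 2.24 CPM. The rest of these 12 were Clic5, Ushbp1, St8sia4, Pcdh17, Mfng, Hcls1, Lmo2 and Gpr4. The 8 endothelial markers were all called lower in the same comparison, with a median log2 ratio of −3.37. Basement membrane genes had a median log2 ratio of −1.05 over all members and 0.28 in the 118, and the 6 fibrillar collagen genes tested 0.95 and −0.00. Values below are for the 118. Of the genes named as called below, Adamts1, Plat, Atf3, Zfp36, Nr4a1, Dusp1, Hspb1, Itga1, Lama4, Meis2 and Rgs5 had log2 ratios of the opposite sign over all members, so their direction rests on leaving out the endothelial-marked barcodes.

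Fibrillar collagens had equal summed levels in the libraries, and 0 of the 6 tested reached 2-fold. Col1a1, Col1a2 and Col3a1 are genes of the rule, so their levels depend on how the cells were selected. Col1a1 had 2151 CPM in the control (95% Poisson interval 2037 to 2270) and 2166 CPM in the TBL/RβKO library (2119 to 2213), a log2 ratio of 0.01 (−0.07 to 0.09). Col1a2 had a log2 ratio of −0.08 (−0.16 to 0.01), Col3a1 −0.01 (−0.11 to 0.09), and Col5a1, Col5a2 and Col5a3, the type V collagen chains, −0.20, 0.02 and 0.31. This equality rests on 1 control cell of 51334 UMIs, which held 33.1% of the Col1a1 UMIs of its library, 41.5% of Col1a2, 39.4% of Col3a1 and 50.6% of Timp1. Without it the log2 ratios were 0.46 (0.36 to 0.56) for Col1a1, 0.57 for Col1a2, 0.58 for Col3a1 and 1.21 for Timp1.

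In single cells the medians of Col1a1 and Col3a1 were lower in the control. Col1a1 ran from 0 to 85.7 UMIs per 10000 in the control with a median of 14.3, and from 0 to 58.1 with a median of 21.3 in the TBL/RβKO library. Col3a1 had medians of 9.10 and 13.6, and the libraries overlapped over most of the range for both genes. Col1a1 and Col1a2 varied together from cell to cell, with a Spearman rho of 0.73 over the 21 control cells and 0.87 over the 97 TBL/RβKO cells. Both values describe cells of 1 library each, which share its preparation.

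Dcn, which is also a gene of the rule, and Mgp behaved differently from each other. Dcn had 651 CPM in the control and 1095 CPM in the TBL/RβKO library, a log2 ratio of 0.75 (0.60 to 0.90), and 1.00 without the collagen-rich control cell. Cell by cell it had a median of 1.64 UMIs per 10000 in the control (range 0 to 28.5) and 9.04 in the TBL/RβKO library (0 to 46.4). Mgp had 9372 and 9820 CPM, a log2 ratio of 0.07. It was at 0 UMIs in 1 of 21 control cells and 12 of 97 TBL/RβKO cells, while the highest cells reached 337 and 637 UMIs per 10000. Sparc, which encodes a collagen-binding glycoprotein, was detected in every cell of both libraries and had 5357 and 6204 CPM. Biglycan (Bgn), a small leucine-rich proteoglycan like decorin, had 1353 and 1611 CPM.

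**Figure D4:**
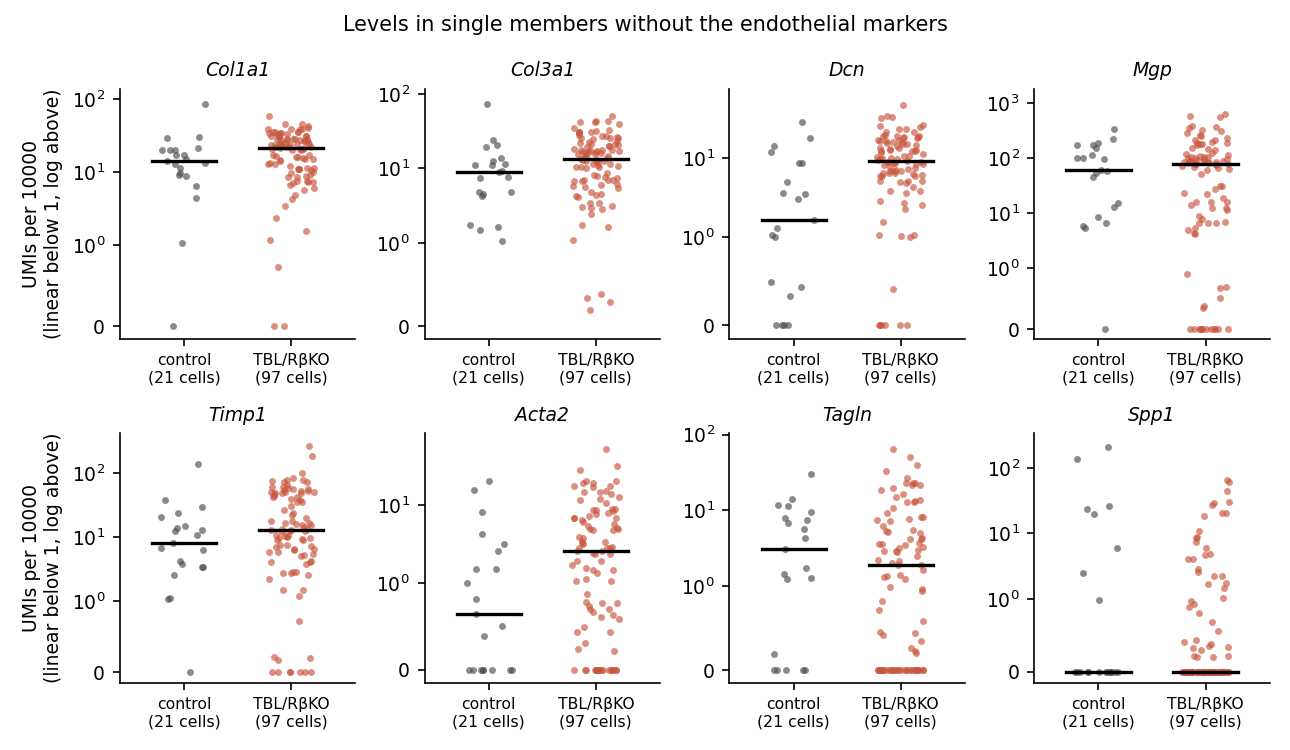
Each point is 1 of the 118 cells and each bar the median of its library, in UMIs per 10000 on an axis that is linear below 1 and logarithmic above. The libraries overlapped for every gene shown, the Dcn medians were 1.64 in the control and 9.04 in the TBL/RβKO library, and Spp1 was at 0 in 13 of 21 and 54 of 97 cells.

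Most other matrix genes lay within 2-fold. None of the 8 proteoglycan genes, 9 other collagen genes, 15 elastic fibre and glycoprotein genes or 14 collagen-processing genes tested was called, with median log2 ratios of 0.14, 0.27, 0.04 and −0.12. These counts rest on the collagen-rich control cell. Without it Dcn, Col6a2 (log2 ratio 1.01), Col12a1 (1.11), Eln (1.90, 1.26 to 2.63), Pcolce (1.19) and the collagen cross-linking enzyme gene Lox (1.19) passed 2-fold, and 0 matrix genes were lower by 2-fold, where 4.77% of all genes were higher and 1.89% lower. The nearest to 2-fold with it were Pcolce, which enhances procollagen processing, at 152 and 285 CPM (log2 ratio 0.91), and Col8a1, a short-chain collagen of vessel walls, at 229.5 and 127 CPM (−0.86). Without that cell Col8a1 had a log2 ratio of −0.19 (−0.53 to 0.16). Elastin (Eln) had 74.4 and 132 CPM, and 35.3 CPM in the control without that cell. Fibronectin (Fn1) had 495 and 330 CPM, and 381 CPM in the control without it, a log2 ratio of −0.20 with an interval that includes 0 (−0.41 to 0.01). Of 9 basement membrane genes 1 was called higher, the laminin chain gene Lama4, at 14.5 and 33.0 CPM. Type IV collagen genes were close, with log2 ratios of 0.20 for Col4a1 and −0.12 for Col4a2.

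Matrix proteases and their inhibitors were called higher for 4 of 10 genes tested and lower for 0, where 3.84% of all genes were called higher. Mmp2 had 40.4 CPM in the control and 88.9 CPM in the TBL/RβKO library, Adamts1, an aggrecan-cleaving protease, 9.70 and 38.2 CPM, and Plat, tissue plasminogen activator, 45.3 and 97.3 CPM. Stromelysin Mmp3 had 0 UMIs in the control and 175 in the TBL/RβKO library, of which 70% lay in 1 cell. The inhibitors Timp2 and Timp3 had log2 ratios of 0.20 and 0.41. Over all 140 members 3 of 11 were higher and 2 lower, with Adamts1 at −1.31 and Plat at −0.14, and the list median was −0.14 against 0.55 in the 118. Without the collagen-rich control cell Plat had a log2 ratio of 0.98.

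Of the contractile genes 2 of 5 tested were called higher, beside 3.84% of all genes. Acta2 had 302 CPM in the control and 614 CPM in the TBL/RβKO library (log2 ratio 1.02, 0.81 to 1.24), and Mylk, the kinase that activates smooth-muscle myosin, 21 and 85.5 CPM. Tagln had 554 and 530 CPM, and the tropomyosin genes Tpm1 and Tpm2 log2 ratios of −0.03 and 0.30. Acta2 ranged from 0 to 20.7 UMIs per 10000 in control cells with a median of 0.642 and from 0 to 52.9 with a median of 2.57 in TBL/RβKO cells. The highest control cell held 41% of the Acta2 UMIs of its library, and without the collagen-rich control cell the log2 ratio of Acta2 was 0.91 (0.70 to 1.14). Among mural genes Rgs5 was called higher, at 11.3 and 42.4 CPM, yet 1 cell held 58% of its UMIs in the TBL/RβKO library. Cspg4, encoding the pericyte proteoglycan NG2, had 109.9 and 94.4 CPM and Des 119.6 and 121 CPM.

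Fibroblast genes gave 2 called higher of 8 tested, beside 3.84% of all genes. Gsn, the actin-severing protein gelsolin, had 538 CPM in the control and 1121 CPM in the TBL/RβKO library and was detected in 14 of 21 and 89 of 97 cells. Ly6a, which encodes the surface antigen Sca-1, had 32.3 and 125 CPM, with 90% of the 20 control UMIs in 1 cell. Pdgfra itself had 55.0 and 54.4 CPM. Among retinoid genes of stellate cells Aldh1a1, which makes retinoic acid, was called lower at 30.7 and 11.8 CPM. Lrat, the enzyme that stores retinol and defines quiescent stellate cells, did not reach a mean of 20 CPM.

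Signalling ligands and receptors differed gene by gene. In the TGF-β and BMP list, 3 of 19 genes were called higher and 1 lower, beside 3.84% and 1.35% of all genes. Tgfb3, a TGF-β ligand, had 29.1 CPM in the control and 76.1 CPM in the TBL/RβKO library, and the induced matrix protein gene Tgfbi 16.2 and 73.0 CPM. Grem1, a secreted BMP antagonist, had 0 UMIs in 21 control cells and 288 UMIs in 8 of 97 TBL/RβKO cells, which against a floor of 3 UMIs in the control library is at least a log2 ratio of 3.96. Ccn2, the matricellular factor CTGF, was called lower at 642 and 215 CPM (log2 ratio −1.58, −1.75 to −1.40), with medians of 1.70 and 0.457 UMIs per 10000. The receptors Tgfbr1, Bmpr1a and Bmpr2 had log2 ratios of −0.11, −0.32 and 0.17, and Tgfbr2 0.75. In the PDGF list 0 of 4 genes was called, and the ligand gene Pdgfa came closest with 119.6 and 60.7 CPM.

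Among WNT genes 1 of 4 tested was called higher, the transcription factor gene Tcf7l2, at 22.6 and 60.4 CPM. Over all genes 3.84% were called higher and 1.35% lower. Of 7 IGF genes, Igfbp6 was called higher (29.1 and 68.5 CPM) and Igfbp3 lower (66.3 and 13.6 CPM). Among 10 other growth factors Fgf7, an epithelial mitogen, was called lower at 58.2 and 7.59 CPM, with 94% of its control UMIs in 1 of 21 cells.

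Cytokine genes included some of the larger differences, with 4 of 12 called higher and 1 lower, beside 3.84% and 1.35% of all genes. Il11 had 640 CPM in the control and 1446 CPM in the TBL/RβKO library (log2 ratio 1.18, 1.03 to 1.33), with UMIs in 14 of 21 and 61 of 97 cells. Its medians were nearly the same, 0.663 and 0.646 UMIs per 10000, and the highest cells stood at 42.2 and 199.6 UMIs per 10000. Il6 had 59.8 and 125 CPM, Cxcl16 32.3 and 99.7 CPM, and the neutrophil chemokine gene Cxcl1 9.70 and 51.8 CPM. Spp1, encoding osteopontin, was called lower at 2127 and 565 CPM. A pair of control cells held 720 and 427 of the 1316 control UMIs, and the 7 TBL/RβKO cells with ductal markers held 39.9% of the Spp1 UMIs there. With cells left out that had 2 or more markers of another type, the log2 ratio of Spp1 was 0.17 instead of −1.91. In the control that left out 2 of 21 cells, both for endothelial markers. Spp1 stood at 387 CPM in the TBL/RβKO cells without ductal markers, further below the control. Leaving out ductal-marked cells thus does not by itself change the sign.

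Over all genes 3.84% were called higher, which is the share to set beside the counts of the next lists. Complement genes were higher for 3 of 6 tested, with a median log2 ratio of 0.78. C3 had 16.2 and 90.5 CPM and the C1-inhibitor gene Serping1 145 and 365 CPM, the latter detected in 14 of 21 and 89 of 97 cells. C1s1, a C1 protease, had 21 and 43.4 CPM. Surface receptors were called higher for 5 of 12 genes: Thy1 (51.7 and 145 CPM) and Cd248 (43.6 and 98.9 CPM), which are fibroblast surface proteins, the adhesion molecule gene Vcam1 (17.8 and 45.5 CPM) and the integrin chains Itga1 (22.6 and 51.0 CPM) and Itgb3 (14.5 and 33.5 CPM). Interferon-response genes had a median log2 ratio of 0.64 and 1 of 7 called, Isg15, at 6.47 and 61.2 CPM with 37% of the TBL/RβKO UMIs in 1 cell. The other 6 had log2 ratios from 0.46 for Bst2 to 0.84 for Ifi27.

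Transcription factor genes of mesenchyme were mostly alike, with 14 of 16 inside 2-fold. Prrx1, a factor of limb and fibroblast mesenchyme, had 276 and 273 CPM, Foxs1, a pericyte factor, 178 and 166 CPM, and Ebf1 585 and 456 CPM. Meis2, a homeobox gene, was called higher (37.2 and 107 CPM) and Twist1, which drives mesenchymal fate, lower (58.2 and 26.2 CPM), with 67% of the control Twist1 UMIs in 1 cell. Immediate early genes split into 4 higher, which were Atf3, Zfp36, Nr4a1 and Dusp1, and 1 lower, Klf2, of 15 tested, beside 3.84% and 1.35% of all genes. Over all 140 members 0 were higher and 4 lower, and Atf3, Zfp36, Nr4a1 and Dusp1 had log2 ratios of −0.95, −1.15, −0.50 and −1.91. Fos and Jun had log2 ratios of −0.05 and −0.47. Heat shock genes gave 1 called of 9, Hspb1, at 37.2 and 83.2 CPM. Among cell cycle genes Tyms and Rrm2, of nucleotide synthesis, were called higher and Ccnb1 lower of 13 tested, and Mki67 had 56.6 and 54.9 CPM.

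**Figure D5:**
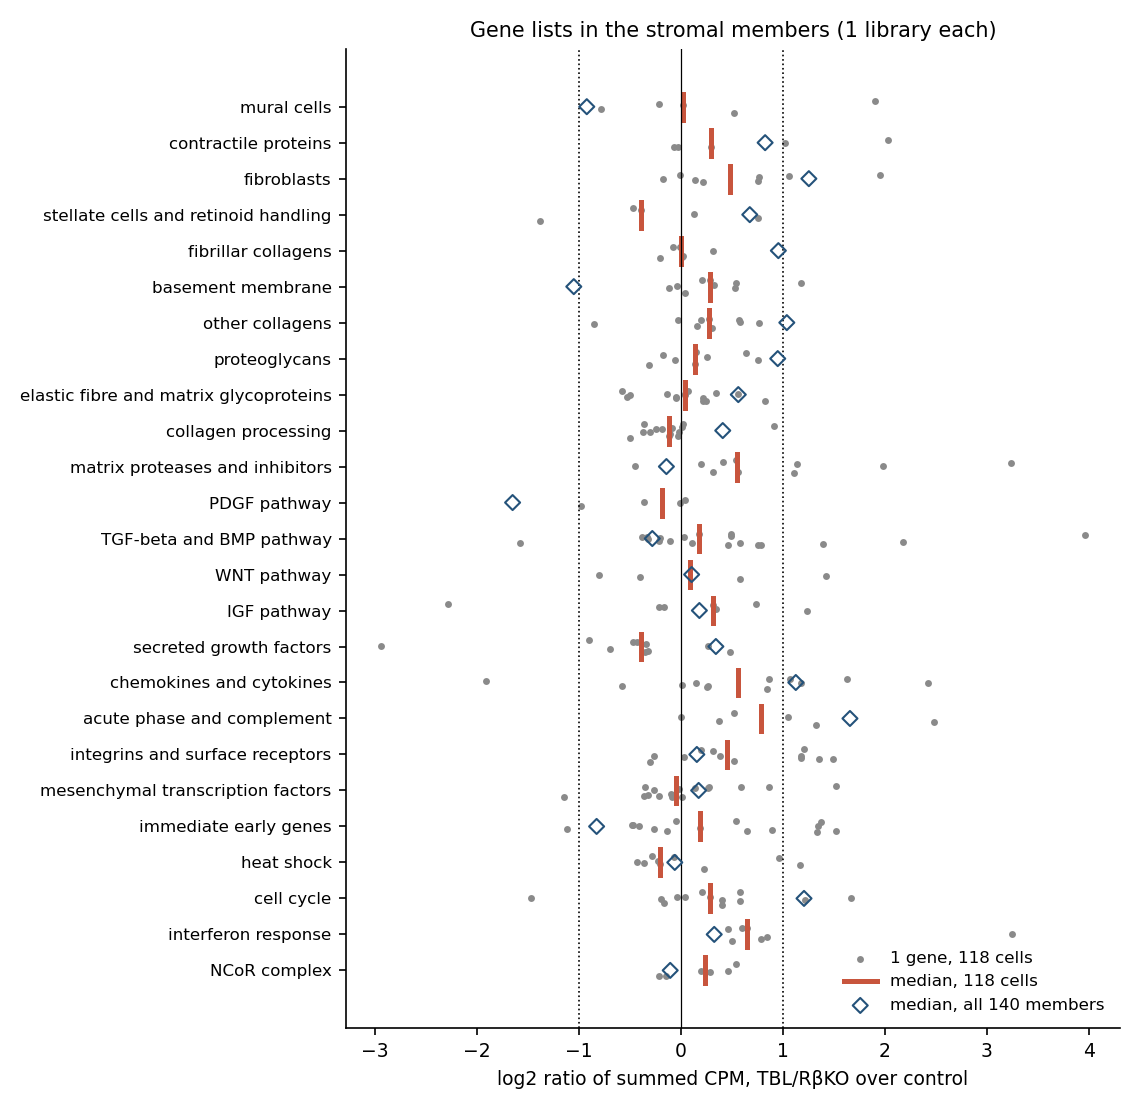
Each grey point is the log2 ratio of summed CPM (TBL/RβKO over control) of 1 tested gene in the 118 cells, each red bar its list median, and each blue diamond the list median over all 140 members, with dotted lines at 2-fold. The list medians in the 118 cells lay between −0.39 and 0.78. With the endothelial-marked barcodes included, basement membrane, PDGF, mural and immediate early lists lay at or below −0.83. The complement, fibroblast, cell cycle, cytokine and other collagen lists then lay at 1.66, 1.25, 1.21, 1.12 and 1.04.

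The 12 highest ratios among genes seen in at least 10 cells, with no cell above 25% of the UMIs, began with Enpp2. It encodes autotaxin, the enzyme that makes lysophosphatidic acid, and lies on chromosome 15 (54701324 to 54816288, minus strand). Enpp2 had 2 UMIs in 1 of 21 control cells and 550 UMIs in 16 of 97 TBL/RβKO cells, with a log2 ratio of 5.48 (3.62 to 8.53), and 11 of the 16 cells belonged to the Pdgfra subset. The guidance receptor genes Unc5c and Robo1 followed at 3.23 and 55.2 CPM and at 8.08 and 58.9 CPM. Genes of DNA synthesis were among them, namely the PCNA-binding factor gene Pclaf (14.5 and 95.2 CPM) and the DNA ligase gene Lig1 (8.08 and 44.5 CPM). Tmem176a had 14.5 and 99.1 CPM, the sterol synthesis gene Msmo1 6.47 and 35.1 CPM, the phosphodiesterase gene Pde10a 12.9 and 68.8 CPM, and Ifi27l2a, an interferon-inducible gene, 14.5 and 77.2 CPM. Csmd1 had 95.4 and 602 CPM, with 89.4% of its TBL/RβKO UMIs in 10 cells. C3 and Cxcl1, given above, completed the 12. Apart from Csmd1 with 59, the control counts behind these ratios ran from 2 UMIs (Enpp2 and Unc5c) to 10 UMIs (C3). The 9 control UMIs of Pclaf lay in 1 cell. The floor of 3 UMIs is 4.85 CPM in the control, so such control levels are poorly measured.

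For the 12 lowest ratios the 10 cells had to be among the 21 control cells, and for the 12 highest among the 97 TBL/RβKO cells. The demand was stricter for the lowest, so the sizes of the highest and lowest ratios cannot be compared. Arsj, an arylsulfatase gene, had 40.4 CPM in the control and 9.68 CPM in the TBL/RβKO library, a log2 ratio of −2.06 (−2.83 to −1.27), from 25 and 37 UMIs. Fabp5, a fatty acid-binding protein gene, had 69.5 and 21.2 CPM, and Fosl1, a partner of Jun in the AP-1 factor, 76.0 and 26.2 CPM. The other genes were Ccn2, given above, Tango6, Trmt10c, Hmga1, Zfp280c, Nob1, Rpia, Cmtm6 and Flrt2, with log2 ratios from −1.66 to −1.28. Without the collagen-rich control cell, 215 of the 236 higher and 79 of the 83 lower genes were still called, of 293 and 116 in all. With each cell weighted equally, 177 and 51 were.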

How the data were processed

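The authors deposited filtered matrices of raw UMI counts per gene and barcode, made with Cell Ranger 7.1.0 from Chromium 3′ libraries (chemistry 3.1), and the submitters' processing notes name GRCm39. Barcodes had 500 UMIs or more and up to 10191 genes, so the study's limits on genes were not applied in these files, and the study describes its correction for free RNA and its calls of doublets as later steps. The matrices list 22383 features. Totals were 241434108 UMIs in 7067 control barcodes and 185062206 UMIs in 5833 TBL/RβKO barcodes.

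Members and gene lists were chosen with earlier results of these data known. Counts were summed per library and set and expressed per 1e+06 UMIs (CPM). Log2 ratios carry exact conditional binomial intervals, levels exact Poisson, shares exact Clopper-Pearson and differences of shares Newcombe intervals, all at 95% and for counting error only. A count of 0 was set to a floor of 3 UMIs per library. With 1 library per group no test was made and 2-fold was the call. Named genes were the rule genes, from each of 25 lists the called genes and some of the most abundant, the 12 highest and 12 lowest ratios (UMIs in 10 or more cells, at most 25% in 1 cell, without hormones, Cre, mitochondrial and sex-linked genes and markers of other cell types), 15 leading genes and 10 genes each way between subsets, ranked in the TBL/RβKO library because the control had 1 Rgs5 cell outside the endothelial-marked barcodes. Genes given only with a value near 2-fold, by detection or as the defining marker of a list were chosen after their values were seen. Some genes of these lists are not reported here. Doublets were scored with Scrublet (scanpy 1.11.5) at 0.8% per 1000 barcodes and kept. Python 3.11.15, numpy 2.4.6, scipy 1.17.1, pandas 2.3.3 and matplotlib 3.10.9 were used. The ratio and interval code was tested on simulated data.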

Additional observations from a re-analysis of the deposited data

How the results depend on the processing

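No paired analysis was possible because each group had 1 library. The split by endothelial markers and every alternative for the 118 cells were chosen after seeing the data. Over all members, the Rgs5 share differed by −30.7 points and by −1.82 under the study's filter, −5.11 with 4 or more rule genes, −9.85 with cells thinned to 5000 UMIs, 4.88 without cells holding markers of another type and 7.61 without the endothelial-marked barcodes. The difference in Pdgfra share, 26.7 points, was 2.97 after thinning. Thinning lowers the detection of both genes at 2 UMIs, so such differences shrink whatever their source. The 717 genes lower became 243 (study's filter), 360 (4 rule genes), 142 (without other markers), 83 (without endothelial markers), 373 (mean of 50 CPM) and 1920 (no filter). The 283 higher became 166 (4 rule genes), 122 (50 CPM), 1277 (no filter), 535 (Pdgfra subset, 4 control cells) and 482 (Rgs5 subset). List medians past 2-fold, 7 of 25, were 1, 0, 1, 0 and 2 under the study's filter, with 4 rule genes, without other markers, without endothelial markers and in the Pdgfra subset. Signs changed for the medians of basement membrane (0.28 without either kind of marker) and the PDGF list (0.061 without other markers), and in the Pdgfra subset for fibroblast genes (−0.30), other collagens (−0.15), the cell cycle (−0.41), Col1a1 (−0.66) and Dcn (−0.22).

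For the 118 cells, the difference in share of 1.75 points was 1.16 without cells holding markers of another type. The 83 genes lower became 158 (study's filter), 142 (without other markers), 24 (50 CPM), 864 (no filter) and 689 (Pdgfra subset), and the 236 higher 62, 1207 and 535 under the last 3. List medians past 2-fold went from 0 to 1 under the study's filter, without other markers, with per-cell means, with no filter and without the collagen-rich cell, and to 2 in the Pdgfra subset. Twist1 turned to 0.53 under the study's filter and 0.31 without the collagen-rich cell, and Spp1 to 0.17 without other markers. In the Pdgfra subset C1s1 (−0.053), Gsn (−0.039) and Igfbp6 (−0.23) changed sign. With the endothelial-marked barcodes put back, so did Adamts1 (−1.31), Atf3 (−0.95), Dusp1 (−1.91), Hspb1 (−0.84), Itga1 (−1.11), Lama4 (−2.81), Meis2 (−0.13), Nr4a1 (−0.50), Plat (−0.14), Rgs5 (−2.06) and Zfp36 (−1.15). Where no cell set was changed, the cause was not tested. Of 135 settings of the main values 95 stayed within their limits, among them all with median-of-ratios scaling, with CPM without hormone and mitochondrial genes, with free RNA subtracted or with high doublet scores left out.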
